A study of Mus musculus with 24 samples.

Results

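The 10 genes described here, Atf4, Atf5, Ddit3, Trib3, Psat1, Phgdh, Asns, Slc3a2, Slc7a11 and Chac1, belong to the amino acid stress response driven by the transcription factor Atf4, and were followed among the 21671 genes measured in 24 RNA-Seq samples of mouse spleen. They were found by symbol, and all 10 were present in every sample. They were chosen by their expression in these samples, with attention to induction by ionizing radiation (IR) in B cells that lack p53 but not in wild-type B cells. Comparisons of the 10 genes that include B cell samples, unstressed ones too, are therefore given as a description with no test. Tests of the 10 genes are given within non-B cells. Since values of all 8 groups were in view when the genes were chosen, these tests are not fully independent of the choice. Tests are also given for 87 other genes of the pathway.

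In the integrated stress response, kinases that sense a lack of amino acids, a lack of heme, double-stranded RNA or misfolded proteins phosphorylate the translation factor eIF2. General translation then slows, while translation of Atf4 mRNA increases. Atf4 protein in turn binds genes for amino acid synthesis, amino acid uptake and tRNA charging, often together with a C/EBP family partner. Much of its control is translational, so that Atf4 mRNA is not a measure of Atf4 protein.

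Splenic B cells were isolated with beads against B220 from mice of 8 weeks of age on a C57/Bl6 background. Non-B cells were the B220-negative remainder, a mixture enriched in T cells. Mice were either Trp53+/+ or Trp53-/-, the latter a germline knockout, and were either left unstressed (mock) or collected 4 h after a whole-body dose of 7 Gy. The 8 groups held 4 samples each where Trp53+/+ and 2 where Trp53-/-, and the groups differ in no other agent or allele that the labels give. As the methods describe, the 4 and 2 samples of a condition came from as many mice, but the sources do not say whether B and non-B samples with the same number came from the same spleen. In these bulk samples, fewer cells of a type and less RNA per cell cannot be told apart.

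The promoters of 4 of the 10 genes held a match to TGATGNAA, the composite sequence bound by Atf4 together with a C/EBP factor, searched on both strands from 250 bases before the start site of the gene to 50 bases after it. Among 27025 genes with a promoter in the RefSeq table (GRCm38.p6), 4.51% held a match in at least 1 promoter. The matching stretches are shown so that the same sequence can be set beside the differing values of these 4 genes. Sequences are those of the RefSeq table on the strand of the gene, 5′ to 3′, with the match in capitals, placed in mm9 by their only exact match in that genome. Chac1 (chr2:119176728-119176977, plus strand) held TTGCATCA, the reverse complement of the motif, 193 bases before the start. Asns (chr6:7643210-7643459, minus strand) held TGATGAAA 23 bases before the start. Slc7a11 (chr3:50247536-50247785, minus strand) held TGATGCAA and TTGCATCA, 66 and 47 bases before the start. In Trib3 (chr2:152169767-152169796, minus strand), TTACATCA began 14 bases after the start, and only the first 30 transcribed bases are shown.
Asns: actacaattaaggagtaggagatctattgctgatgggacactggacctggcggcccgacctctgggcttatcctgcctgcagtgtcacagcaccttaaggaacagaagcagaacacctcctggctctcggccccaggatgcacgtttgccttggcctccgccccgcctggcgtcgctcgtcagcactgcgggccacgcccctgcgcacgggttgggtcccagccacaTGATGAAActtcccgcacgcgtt
Chac1: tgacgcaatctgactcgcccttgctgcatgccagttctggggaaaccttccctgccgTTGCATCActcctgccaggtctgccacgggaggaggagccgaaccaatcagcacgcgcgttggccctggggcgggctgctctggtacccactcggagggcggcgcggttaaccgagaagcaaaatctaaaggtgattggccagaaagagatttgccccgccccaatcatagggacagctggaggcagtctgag
Slc7a11: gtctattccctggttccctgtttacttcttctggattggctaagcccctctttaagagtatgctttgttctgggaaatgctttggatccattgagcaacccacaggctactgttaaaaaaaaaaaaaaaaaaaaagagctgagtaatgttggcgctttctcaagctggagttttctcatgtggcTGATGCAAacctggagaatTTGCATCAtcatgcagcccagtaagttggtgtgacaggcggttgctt
Trib3: agattagctcaggtTTACATCAgccgggcg
No match lay in the windows of Atf4, Atf5, Ddit3, Psat1, Phgdh and Slc3a2, which says only that these letters were absent from 300 bases. Of the other pathway genes, a match was found in 5 of the 9 genes for tRNA charging that have a promoter in the table and in 3 of 6 for amino acid synthesis other than serine, but in 0 of 5 for serine and one-carbon synthesis. It was found in 5 of 13 partners and other outputs of Atf4, 1 of 4 transporters, 1 of 16 chaperones and folding genes of the endoplasmic reticulum, 0 of 6 eIF2 kinase and phosphatase genes and 0 of 7 genes of the Nrf2 oxidative stress response.

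In mm9, Atf4 lies at chr15:80085614-80087970, Atf5 at chr7:52067627-52072028, Ddit3 at chr10:126727830-126733344, Trib3 at chr2:152163158-152169768, Asns at chr6:7625169-7643254, Psat1 at chr19:15979168-16021827, Phgdh at chr3:98117093-98143913, Slc7a11 at chr3:50168858-50247535, Slc3a2 at chr19:8781372-8797859 and Chac1 at chr2:119176965-119180117. These ends come from another annotation than the RefSeq start sites used for the promoters, and for some genes they differ. By the ends given here, most of the stretch shown for Trib3, with its match, lies before the gene. The match of Asns lies within its gene. Levels are RPKM, reads per kilobase of exon per M (mega) reads mapped to exons. Atf5 shares 82 exonic bases with Nup62 and with Il4i1, and Ddit3 shares 68 with Mars, in each case on the opposite strand. The library kit does not mark the strand, so that reads from these shared bases could count for either gene and the values of Atf5 and Ddit3 are uncertain to that extent.

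The depth, estimated from the step size of low RPKM values, was 4.733 to 10.959 M reads (median 8.74). At these depths the 10 genes ranged from 3 to 155 estimated reads per sample for Chac1 and 6 to 51 for Trib3 up to 861 to 1587 for Atf4, so that values of Chac1 and Trib3 below an RPKM of 1 rest on few reads. The mean RPKM of Atf4 exceeded that of 98.7% of all genes. Trp53 reads were lower in Trp53-/- than in Trp53+/+ B cells, 21.6 to 21.7 against 44.8 to 47.9 RPKM unstressed and 40.5 to 41.8 against 58.7 to 65.8 after IR. They did not disappear, and in irradiated non-B cells the Trp53-/- values, 34.6 to 36.4, overlapped with those of Trp53+/+ cells, 35.0 to 38.6. The summed RPKM of 6 B cell markers was 675 to 881 in B samples and 181 to 470.3 in non-B samples, and that of 7 T cell markers 50.5 to 91.8 and 277 to 566, with every one of these markers above 0 in every sample. Non-B samples thus kept B cell transcripts. Some irradiated Trp53+/+ libraries stood apart in that 6.97% to 47.2% (B) and 8.51% to 51.3% (non-B) of 1434 olfactory and vomeronasal receptor genes had reads, against 5.3% to 9.21% in unstressed libraries and 6.76% to 13.0% in irradiated Trp53-/- libraries.

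Psat1 and Phgdh, enzymes that make serine, stood highest in irradiated Trp53-/- B cells. Phgdh catalyses the first step of serine synthesis from glycolysis and Psat1 the next. Psat1 stood at 9.98 and 11.4 RPKM in the 2 unstressed Trp53-/- B samples and at 37.4 and 31.0 after IR. In Trp53+/+ B cells it stood at 16.2, 11.8, 15.4 and 12.8 before and 18.4, 15.7, 18.0 and 16.8 after IR. Both irradiated Trp53-/- samples lay above every other B sample, while the irradiated Trp53+/+ samples overlapped with the unstressed ones. The log2 fold change (± SE, on the log2(RPKM + 0.5) scale) was 1.63 ± 0.15 in Trp53-/- and 0.30 ± 0.11 in Trp53+/+ cells, and the difference was 1.33 ± 0.19.

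Phgdh stood at 32.0 and 32.4 RPKM in unstressed and 71.6 and 54.6 in irradiated Trp53-/- B cells, against 38.8, 36.4, 37.2 and 30.2 before and 42.0, 37.5, 46.1 and 40.0 after IR in Trp53+/+ B cells. The 2 irradiated Trp53-/- samples were again the highest of the 12 and lay apart from the rest, but also apart from each other. The log2 fold change was 0.95 ± 0.14 in Trp53-/- and 0.21 ± 0.10 in Trp53+/+ cells, a difference of 0.73 ± 0.17. Without the first irradiated Trp53-/- sample the difference was 0.54 and without the second 0.93.

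Asns is asparagine synthetase, which makes asparagine from aspartate. It stood at 0.509 and 0.471 RPKM in unstressed Trp53-/- B cells and at 4.82 and 4.29 after IR, a log2 fold change of 2.35 ± 0.52, the largest of the 10 genes in these cells. However, in Trp53+/+ B cells it stood at 5.75, 2.99, 3.54 and 0.757 before IR and 2.01, 2.48, 1.73 and 1.81 after it, a log2 fold change of -0.38 ± 0.37. The irradiated Trp53-/- samples thus lay within the range of the unstressed Trp53+/+ samples, and the fold change in Trp53-/- cells was reached from a base below 4 of 4 Trp53+/+ samples. The difference between genotypes, 2.73 ± 0.64, combines a low start and a higher end.

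Among the transcription factors and their regulators, Trib3, a pseudokinase that restrains Atf4 and is itself induced by it, stood at 0.585 and 0.332 RPKM in unstressed and 2.76 and 1.31 in irradiated Trp53-/- B cells, and at 0.806, 0.572, 0.639 and 0.457 before and 0.867, 0.710, 0.812 and 1.13 after IR in Trp53+/+ B cells. Both irradiated Trp53-/- samples exceeded all other B samples, yet differed from each other by more than the Trp53+/+ groups spanned. The log2 fold change was 1.35 ± 0.30 in Trp53-/- and 0.30 ± 0.21 in Trp53+/+ cells. The difference of 1.05 was 0.62 without the first irradiated Trp53-/- sample and 1.48 without the second.

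Chac1, which degrades glutathione, followed the same course at similarly low levels. It stood at 0.487 and 0.217 RPKM in unstressed and 2.67 and 1.30 in irradiated Trp53-/- B cells, while Trp53+/+ B cells held 0.806, 0.680, 0.584 and 0.266 before and 0.619, 0.663, 0.265 and 0.657 after IR. Only the 2 irradiated Trp53-/- samples exceeded an RPKM of 1, so that Chac1 entered the B cell fit through them alone, as Trib3 did through them and 1 irradiated Trp53+/+ sample. Its log2 fold change was 1.51 ± 0.35 in Trp53-/- and -0.04 ± 0.25 in Trp53+/+ cells, a difference of 1.54 that was 1.14 without the first irradiated Trp53-/- sample and 1.95 without the second.

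Atf4 itself, and Ddit3 (also called Chop), the stress-induced C/EBP family factor downstream of Atf4, were higher after IR in both genotypes. Atf4 stood at 73.2 and 79.2 RPKM before and 105 and 95.0 after IR in Trp53-/- B cells, and at 73.7, 71.0, 79.3 and 70.4 before and 90.6, 106, 95.0 and 92.9 after IR in Trp53+/+ B cells. Its unstressed and irradiated samples did not overlap in either genotype, and the 2 log2 fold changes were 0.39 ± 0.09 and 0.38 ± 0.07, a difference of 0.01 ± 0.12. Ddit3 stood at 30.8 and 31.0 RPKM before and 45.0 and 46.8 after IR in Trp53-/-, and at 32.4, 28.7, 30.4 and 29.8 before and 44.4, 45.4, 41.4 and 52.1 after IR in Trp53+/+ B cells. Here too the treatments did not overlap while the genotypes did, with log2 fold changes of 0.56 and 0.58. Atf5, a related factor of the same response, was at 4.89 to 5.14 RPKM before and 6.37 to 7.05 after IR in Trp53-/- cells, and at 4.23 to 5.71 and 3.49 to 5.92 in Trp53+/+ cells, with log2 fold changes of 0.39 ± 0.23 and -0.05 ± 0.17.

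The 2 remaining genes encode transporter subunits. Slc3a2, the heavy chain shared by several amino acid exchangers, was at 30.4 to 32.8 RPKM before and 39.9 to 42.9 after IR in Trp53-/- cells and at 34.0 to 39.1 and 42.5 to 50.2 in Trp53+/+ cells, so that both genotypes were higher after IR, by 0.38 and 0.33 on the log2 scale. Slc7a11, the cystine-glutamate exchanger that pairs with Slc3a2, was the only one of the 10 genes with a lower mean in irradiated Trp53-/- B cells, at 2.28 and 2.33 RPKM before and 1.82 and 2.04 after IR, a log2 fold change of -0.21 ± 0.19. In Trp53+/+ B cells it stood at 2.21, 2.41, 2.48 and 2.35 before and 2.90, 3.18, 2.57 and 2.34 after IR, which overlapped.

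**Figure D1:**
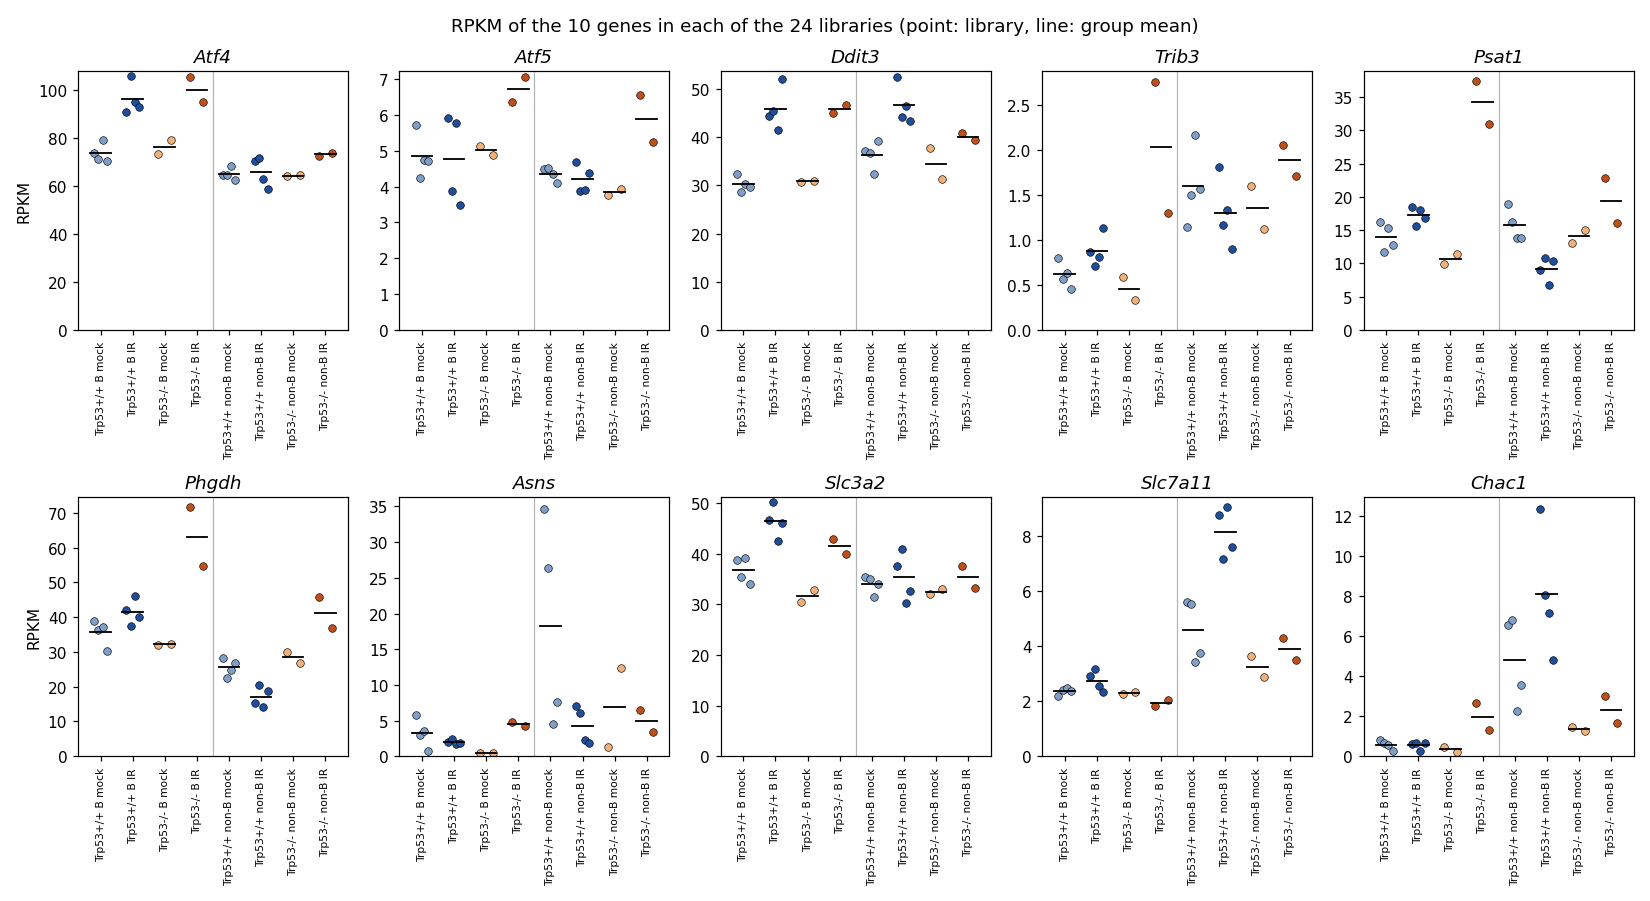
RPKM (linear axes from 0) of each of the 10 genes by group, with 1 point per library and a line at the group mean, B cells left and non-B cells right of the grey line. Psat1, Phgdh, Trib3 and Chac1 are highest of all B samples in the 2 irradiated Trp53-/- samples, whereas Atf4 and Ddit3 are higher after IR in both genotypes and Asns is widely spread in unstressed non-B cells, from 1.36 to 34.6.

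The 10 genes thus did not share 1 profile over the 12 B samples. With the mean of their standardized values, Pearson's r was 0.932 for Psat1, 0.917 for Phgdh, 0.886 for Trib3, 0.855 for Atf4, 0.814 for Ddit3, 0.784 for Chac1, 0.775 for Slc3a2 and 0.709 for Asns, but 0.437 for Atf5 and -0.149 for Slc7a11. These are descriptions over 12 samples that share their groups and in which each gene is part of the mean. Of 13935 other genes, the 8 whose log2 values over the same 12 samples were most like this mean were Bzw2 (r = 0.985), Rars (0.981), Bid (0.98), Hspd1 (0.977), Abce1 (0.976), Snrpd1 (0.974), Kars (0.974) and Rexo2 (0.973). Rars and Kars encode the tRNA synthetases for arginine and lysine, Hspd1 a mitochondrial chaperonin and Bid a BH3-only protein of apoptosis. Their log2 fold changes on IR ranged from 0.69 to 1.30 in Trp53-/- and from 0.28 to 0.55 in Trp53+/+ B cells.

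The choice of the genes turned on B cells, with the non-B values also in view, and their responses were tested in non-B cells. Calls needed an adjusted p under 0.05 (limma, Benjamini-Hochberg over 14138 genes) and an absolute log2 fold change above 0.58. In Trp53+/+ non-B cells, the gene of the second step of serine synthesis fell after IR. Psat1 stood at 18.9, 16.2, 13.9 and 13.9 RPKM before and 8.99, 10.8, 6.79 and 10.3 after IR, with no overlap, and fell by 0.75 ± 0.16 on the log2 scale (adjusted p = 0.0109). Phgdh stood at 28.2, 22.5, 24.7 and 26.9 RPKM before and 15.2, 20.4, 14.0 and 18.9 after IR, also without overlap, and its log2 fold change of -0.57 ± 0.13 (adjusted p = 0.0111) missed only the threshold on size. It passed that too, at -0.59 to -0.66, without unstressed sample 2 or 3 or irradiated sample 2 or 4. Slc7a11 rose, from 5.59, 5.54, 3.42 and 3.74 to 8.76, 7.16, 9.05 and 7.62 RPKM, again with no overlap, by 0.79 ± 0.18 (adjusted p = 0.012). Among the 10 genes, 1 was thus called higher and 1 lower, where 5.71% and 4.08% of all genes were, 1384 in all and 918 without irradiated sample 3. With the mean log2 level of the receptor genes as a covariate, neither Psat1 (adjusted p = 0.262) nor Slc7a11 (0.194) passed.

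Summed markers of some other cells also had lower medians in the irradiated Trp53+/+ non-B samples, and those of others had higher ones. The median of the T cell markers was 408 RPKM before and 347 after IR, with overlap. Medians were higher after IR for neutrophil (526 before and 569 after), macrophage and monocyte (395 and 433) and plasma cell markers (125 and 162), all with overlap. The summed RPKM of 7 erythroid markers was 319, 318, 125 and 126 before and 106, 28.2, 29.3 and 42.7 after IR, with no overlap. That of 7 markers of dividing cells was 359.9, 343, 109 and 125 before and 146, 105, 72.1 and 84.3 after IR, and that of the B cell markers 273 to 434 before and 181 to 353 after, both with overlap. In Trp53-/- non-B samples the erythroid sums were 62.0 and 244 before and 94.0 and 88.2 after IR and the dividing sums 94.9 and 239 before and 133 and 107 after, each irradiated value lying between the unstressed ones. With the dividing markers as a covariate, the log2 fold change in Trp53+/+ non-B cells was -0.52 for Psat1 (adjusted p = 0.041), under the size threshold, and -0.59 for Phgdh (0.0171), past both thresholds, while Slc7a11 was still called. The part of the erythroid, B and other cells in these changes was not tested.

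The remaining genes did not pass in Trp53+/+ non-B cells. Chac1 stood at 6.56, 6.80, 2.24 and 3.56 RPKM before and 12.3, 8.07, 7.14 and 4.83 after IR, and Asns at 34.6, 26.3, 4.55 and 7.63 before and 6.99, 5.99, 2.25 and 1.82 after IR, both with wide and overlapping groups and log2 fold changes of 0.74 ± 0.34 (adjusted p = 0.152) and -1.74 ± 0.72 (adjusted p = 0.112). Between unstressed and irradiated samples of the same number, which are of different mice, Chac1 was however higher and Asns lower after IR in each case. With the replicate number as a block, Asns was not called. With the Trp53-/- numbers crossed in that block, a setting chosen after seeing the data, it was, at -1.74 ± 0.32 (limma, adjusted p = 0.00827). Ddit3 was higher, at 32.4 to 39.2 RPKM before and 43.3 to 52.6 after IR, by a log2 fold change of 0.35 ± 0.09 (adjusted p = 0.0187) that was under the size threshold. Atf4, at 62.3 to 68.4 and 58.8 to 71.6 RPKM, had a log2 fold change of 0.02 ± 0.07, and those of Atf5, Trib3 and Slc3a2 were -0.04, -0.22 and 0.05.

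In Trp53-/- non-B cells, Psat1 stood at 13.1 and 15.1 RPKM before and 22.8 and 16.1 after IR, with a log2 fold change of 0.44 ± 0.23 (adjusted p = 0.396). Phgdh stood at 30.1 and 26.8 RPKM before and 45.7 and 36.9 after IR, with a log2 fold change of 0.52 ± 0.18 (adjusted p = 0.183). Both irradiated samples of each gene exceeded both unstressed ones, as did those of Atf5, 6.54 and 5.24 against 3.78 and 3.94 RPKM. The same held for Atf4, at 64.0 to 64.4 RPKM before and 72.6 to 73.8 after IR. Ddit3, at 31.3 to 37.7 and 39.4 to 40.8, and Slc3a2, at 32.0 to 33.0 and 33.1 to 37.6, also separated. So did Trib3 and Chac1, but not Slc7a11 and Asns. With 2 samples a group, none of these differences passed. Trib3 held 1.60 and 1.13 RPKM before and 2.06 and 1.72 after IR, and Chac1 1.46 and 1.25 before and 3.00 and 1.64 after. Slc7a11 held 3.63 and 2.89 RPKM before and 4.32 and 3.50 after IR, and Asns 1.36 and 12.4 before and 6.47 and 3.38 after. By limma, none of the 10 genes was called and 2 had an unadjusted p under 0.05, where 2263 of the 14138 genes did and 0.212% were called higher and 0.276% lower, 69 in all. The 69 calls were 22 or 1 without unstressed Trp53-/- sample 1 or 2, 3 or 29 without irradiated Trp53-/- sample 1 or 2, 17 or 39 without unstressed Trp53+/+ sample 2 or 4 and 23 without irradiated Trp53+/+ sample 3, and the share of them that was higher after IR moved from 43.5% to 54.2% with median-ratio scaling and 59.4% with quantile normalization.

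The difference of the IR responses between genotypes in non-B cells, Trp53-/- minus Trp53+/+, was called for Psat1, 1.18 ± 0.28 (adjusted p = 0.0302), and Phgdh, 1.10 ± 0.22 (adjusted p = 0.015), 2 of the 10 genes where 2.82% of all genes were called higher and 3.71% lower. For both, the Trp53+/+ response was downward and the Trp53-/- response upward. The difference was not called for Asns, 1.83 ± 1.26 (adjusted p = 0.386), whose response had a large error. The replicate number as a block takes same-numbered unstressed and irradiated Trp53+/+ non-B samples, which are of different mice, as pairs. No label gives this pairing, which was inferred from these data. With the block, the adjusted p of Psat1 by limma was 0.052 and 592 rather than 923 genes were called. The 923 were 540 or 333 without unstressed Trp53-/- sample 1 or 2, 315 or 537 without irradiated Trp53-/- sample 1 or 2, and 579 without irradiated Trp53+/+ sample 3. With the mean log2 level of the receptor genes as a covariate the adjusted p was 0.145 for Psat1 and 0.0787 for Phgdh. Without unstressed Trp53-/- sample 2 or irradiated Trp53-/- sample 1 neither gene passed (adjusted p = 0.0799 and 0.145 for Psat1, 0.0719 and 0.0853 for Phgdh), and Psat1 also did not without unstressed Trp53-/- sample 1 (0.102) or unstressed Trp53+/+ sample 2 (0.0547).

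**Figure D2:**
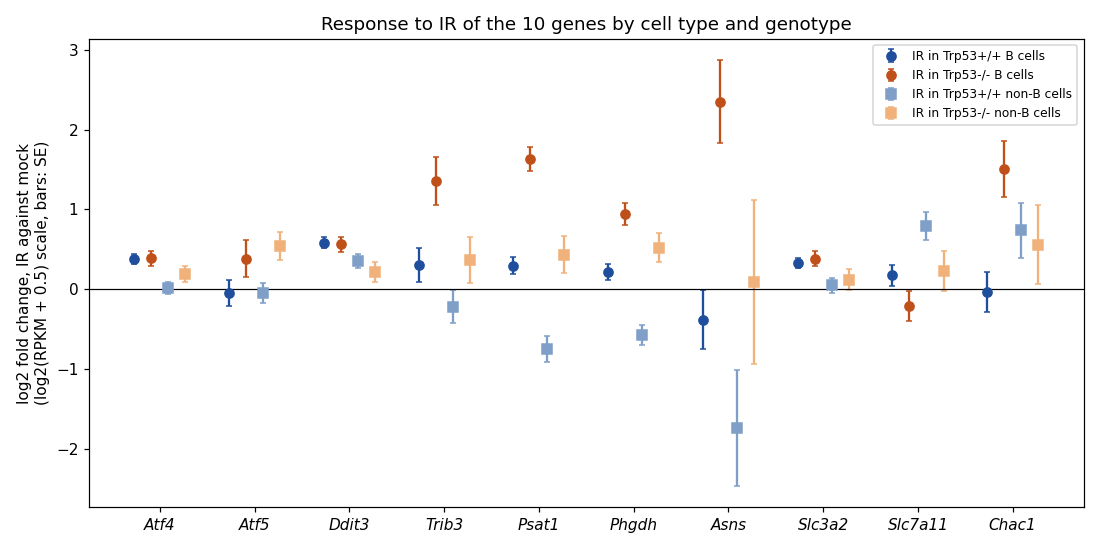
Log2 fold change on IR against mock (log2(RPKM + 0.5) scale, points) with its SE (bars) for the 10 genes, in B cells (circles) and non-B cells (squares) of both genotypes. Psat1 and Phgdh lie above 0 in Trp53-/- B cells, at 1.63 and 0.95, and below 0 in Trp53+/+ non-B cells, at -0.75 and -0.57, while Atf4 lies at 0.38 and 0.39 in Trp53+/+ and Trp53-/- B cells.

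Without stress, Asns stood lower in Trp53-/- B cells than in Trp53+/+ B cells, with both Trp53-/- samples below all 4 Trp53+/+ samples and a log2 difference of -1.71 ± 0.45. It was -2.17 without unstressed Trp53+/+ sample 4, the lowest. With the dividing markers as a covariate, a setting chosen after seeing the data, it was -0.87 ± 0.28. These values are part of what set the genes apart and are a description. In non-B cells, by limma, none of the 10 genes was called between the genotypes and 1 had an unadjusted p under 0.05, where 0.0283% of genes were called higher and 0.0283% lower. These shares stand for 8 genes, 13 without unstressed Trp53-/- sample 1, and 726 of 14138 genes had an unadjusted p under 0.05. The difference of the 10 genes that lay farthest from 0 was that of Chac1, -1.40 ± 0.42 (adjusted p = 0.826), where the Trp53-/- values, 1.46 and 1.25, lay below the Trp53+/+ range of 2.24 to 6.80.

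Between the cell types, Chac1, Asns, Trib3 and Slc7a11 stood lower in unstressed Trp53+/+ B cells than in non-B cells, again as a description. The log2 difference, B minus non-B, was -2.20 ± 0.31 for Chac1, -2.11 ± 0.61 for Asns, -0.89 ± 0.20 for Trib3 and -0.80 ± 0.15 for Slc7a11. In each case except Asns, the ranges did not touch, with 0.266 to 0.806 against 2.24 to 6.80 RPKM for Chac1, 0.457 to 0.806 against 1.15 to 2.17 for Trib3 and 2.21 to 2.48 against 3.42 to 5.59 for Slc7a11. Of these unstressed samples, only the non-B ones exceeded an RPKM of 1 for Chac1 and Trib3. In the same samples, 7 neutrophil markers summed to 39.3 to 241 RPKM in B and 350.0 to 699.6 in non-B cells, of which Elane and Mpo were at 0 in at least 1 B sample of the series, and their part in these differences was not tested. Phgdh stood higher in B cells, 30.2 to 38.8 against 22.5 to 28.2 RPKM, with a log2 difference of 0.47 ± 0.12.

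The order of the 8 groups differed from gene to gene. Psat1 was highest in irradiated Trp53-/- B cells, apart from all other groups, and lowest in irradiated Trp53+/+ non-B cells, which overlapped with unstressed Trp53-/- B cells. Between them, neighbours in the order of means overlapped except unstressed Trp53+/+ and Trp53-/- B cells, at 11.8 to 16.2 and 9.98 to 11.4 RPKM. Phgdh had the same highest and lowest groups, both apart from the rest. Its neighbours overlapped except unstressed B and non-B cells of Trp53-/- mice, at 32.0 to 32.4 and 26.8 to 30.1 RPKM. Asns was lowest in unstressed Trp53-/- B cells, apart from all others, and had its highest mean in unstressed Trp53+/+ non-B cells, which overlapped with most other groups.

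Slc7a11 and Chac1 were highest in irradiated Trp53+/+ non-B cells, at means of 8.15 and 8.10 RPKM, with Slc7a11 apart from all other groups and Chac1 overlapping with unstressed Trp53+/+ non-B cells. Atf4 and Slc3a2 were highest in the irradiated B cells of both genotypes, which overlapped, and Ddit3 in these and in irradiated Trp53+/+ non-B cells, which overlapped as well. Trib3 and Atf5 had their highest mean in irradiated Trp53-/- B cells. For Atf5 this group overlapped with irradiated Trp53-/- non-B cells alone. For Trib3 it overlapped with every non-B group, among them unstressed Trp53+/+ non-B cells at 1.15 to 2.17 RPKM.

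The wide spread of Asns in unstressed cells ran alongside that of markers of dividing cells and of neutrophils. In unstressed Trp53+/+ non-B cells, Asns stood at 34.6, 26.3, 4.55 and 7.63 RPKM, where the summed RPKM of 7 markers of dividing cells was 359.9, 343, 109 and 125 and that of 7 erythroid markers 319, 318, 125 and 126. The first and second libraries were thus high in all 3 measures, and they were also the higher ones for Chac1, Slc7a11 and Psat1 among these 4 libraries. In unstressed Trp53-/- non-B cells, Asns at 1.36 and 12.4 went with 94.9 and 239 for the dividing markers and 62.0 and 244 for the erythroid ones. In unstressed Trp53+/+ B cells the dividing markers summed to 149.8, 98.6, 113 and 62.3, in the same order as Asns over the 4 libraries. The erythroid ones, at 115, 61.6, 47.3 and 124.8 there, were not in that order. The neutrophil markers also followed the order of Asns, at 700, 639, 350 and 414 in unstressed Trp53+/+ non-B cells. They did so too at 431 and 571 in unstressed Trp53-/- non-B cells and 241, 130, 137 and 39.3 in unstressed Trp53+/+ B cells. In unstressed Trp53-/- B cells, where Asns varied little, they were at 46.5 and 60.8. The dividing markers summed to 72.0 and 70.1 before and 93.1 and 85.9 after IR in Trp53-/- B cells, and in irradiated Trp53+/+ B cells to 98.7, 82.2, 95.2 and 98.6.

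Every dividing marker was above 0 in every library, as were 6 of the 7 erythroid markers in all non-B libraries, with Car1 at 0 in at least 1. With the dividing markers as a covariate the log2 fold change of Asns in Trp53-/- B cells was 1.80 rather than 2.35, and the difference between genotypes 1.99 rather than 2.73. The part of these cells in the levels of Asns was otherwise not tested, and that of neutrophils not at all. Leaving out unstressed Trp53+/+ non-B libraries 1 and 2 together, the fall of Psat1 in Trp53+/+ non-B cells was -0.59 with an adjusted p of 0.0684, its difference between genotypes had an adjusted p of 0.0592, and Chac1 rose after IR by 1.30 with an adjusted p of 0.0289 (limma).

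**Figure D3:**
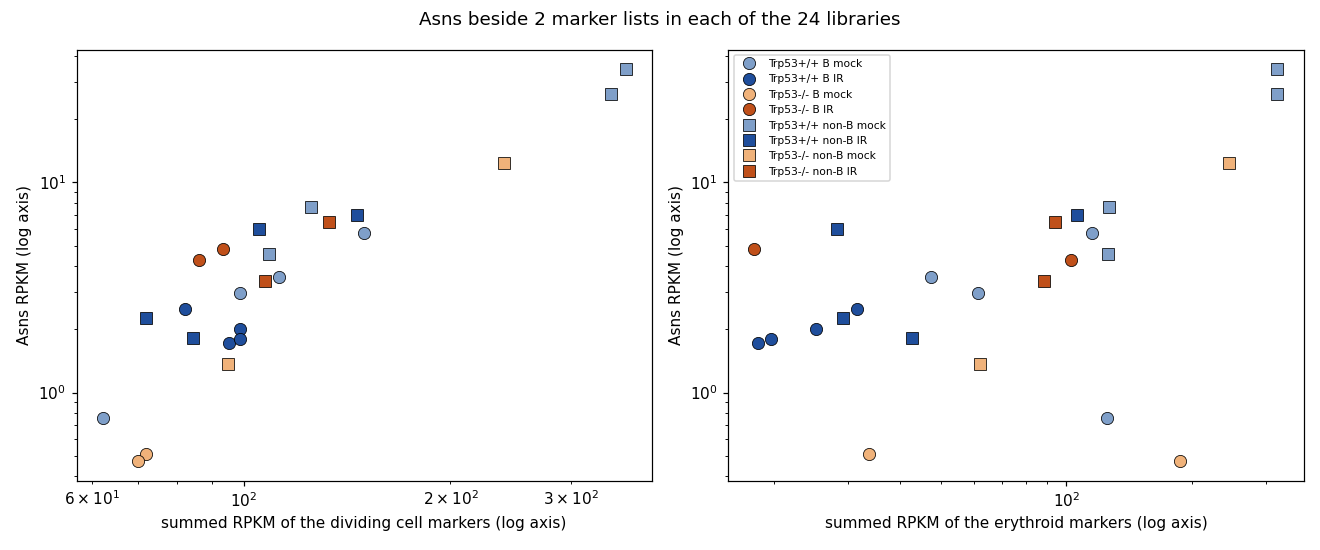
Asns RPKM (log axis) against the summed RPKM of the dividing cell markers (left, log axis) and of the erythroid markers (right, log axis), 1 point per library, with B cells as circles and non-B cells as squares. The 2 libraries with the highest Asns, 34.6 and 26.3, also have the highest sums on both axes, and the 2 irradiated Trp53-/- B samples lie above other B samples of similar dividing marker sum.

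The other genes of the pathway were taken from 8 lists of 87 genes, of which 83 entered the fits, and these lists do not contain the 10 genes. In Trp53-/- B cells, 30 of the 83 rose after IR and 2 fell, where 13.1% and 11.2% of the 13945 genes tested did. Their median log2 fold change was 0.38, against 0.02 over all genes. In Trp53+/+ B cells, 20 rose and 1 fell, where 12.4% and 12.1% of all genes did, with a median of 0.21 against 0.01. Cbs, Slc7a3, Slc6a9 and Nqo1 exceeded an RPKM of 1 in irradiated B samples alone, and without these 4 genes, 27 of 79 rose in Trp53-/- and 18 of 79 in Trp53+/+ B cells. The difference between genotypes was called higher in Trp53-/- cells for 12 and lower for 4, where 5.41% and 6.5% of all genes were, 1660 in all but 1067 without unstressed and 1064 without irradiated Trp53-/- sample 1. These comparisons share the B cell samples with those that chose the 10 genes, and the contrasts share their samples with each other.

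The genes of serine, glycine and one-carbon metabolism, which include Psph, the last enzyme of serine synthesis, and enzymes that use serine, were called higher in 5 of 6 cases in Trp53-/- and 4 of 6 in Trp53+/+ B cells. Mthfd2, the mitochondrial one-carbon dehydrogenase, was at 8.64 to 8.93 RPKM before and 30.3 to 37.2 after IR in Trp53-/- cells and at 8.81 to 12.1 and 9.05 to 13.1 in Trp53+/+ cells, and the difference was 1.74 ± 0.22 (adjusted p = 0.000237). Like Psat1, it was separate from every other B sample only in irradiated Trp53-/- cells. The serine hydroxymethyltransferases rose in both genotypes, Shmt1 by 1.82 ± 0.11 (adjusted p = 7.64e-07) and 1.09 ± 0.08 (adjusted p = 3.11e-07), and mitochondrial Shmt2 by 1.48 ± 0.09 (adjusted p = 7.64e-07) and 1.26 ± 0.06 (adjusted p = 1.37e-08). The genotypes differed for Shmt1, by 0.74 ± 0.14 (adjusted p = 0.00316), while the difference for Shmt2, 0.22 ± 0.11 (adjusted p = 0.19), did not pass. Psph was the gene not called in Trp53-/- B cells, with a log2 fold change of 0.34 ± 0.22 (adjusted p = 0.254). Its highest mean was in irradiated Trp53-/- non-B cells, at 13.7 RPKM against 13.0 in irradiated Trp53-/- B cells, which overlapped. It was named after its values were seen.

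Among genes for the synthesis of other amino acids, 5 of 8 rose and 1 fell in Trp53-/- B cells, and 2 rose and 1 fell in Trp53+/+ B cells. Aldh18a1 and Pycr1, both on the route to proline, and Gpt2, an alanine transaminase, rose in Trp53-/- cells by 1.33, 1.54 and 1.45 on the log2 scale. Their difference from Trp53+/+ cells was 1.00 ± 0.15 (adjusted p = 0.00107), 0.86 ± 0.28 (adjusted p = 0.0476) and 1.45 ± 0.33 (adjusted p = 0.0107). Cbs, which forms cystathionine, rose in both, by 1.17 and 1.54. In B cells Cbs exceeded an RPKM of 1 in irradiated samples alone, so that it entered the fit through the samples where it was high. Mitochondrial Pck2, which forms phosphoenolpyruvate, fell in both genotypes, with log2 fold changes of -0.81 ± 0.10 (adjusted p = 5.91e-05) in Trp53-/- and -1.03 ± 0.07 (adjusted p = 2.05e-07) in Trp53+/+ cells, and the difference of 0.23 ± 0.12 (adjusted p = 0.233) did not pass.

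Of the transporters, 5 of 8 rose in Trp53-/- and 3 of 8 in Trp53+/+ B cells. Slc7a3 and Slc6a9 were among the 8 through irradiated samples alone, and without them 3 and 2 of 6 rose. The largest change of any pathway gene in Trp53-/- cells was that of Slc1a4, an exchanger of alanine, serine, cysteine and threonine, at 0.417 to 0.837 RPKM before and 11.6 to 14.3 after IR. In Trp53+/+ cells it was at 0.663 to 1.26 and 2.17 to 3.15, so that it rose in both, and the difference was 2.55 ± 0.32 (adjusted p = 0.000208). Slc7a5, the large neutral amino acid transporter that pairs with Slc3a2, rose in both, with 7.33 to 8.82 RPKM before and 30.9 to 31.7 after IR in Trp53-/- and 7.99 to 10.028 and 17.4 to 20.1 in Trp53+/+ cells, a difference of 0.91 ± 0.15 (adjusted p = 0.0019).

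The genes for tRNA charging were called higher in 11 of 14 cases in Trp53-/- and in 3 of 14 in Trp53+/+ B cells, with median log2 fold changes of 1.02 and 0.39. Yars, Cars and Aars, the synthetases for tyrosine, cysteine and alanine, and Xpot, the tRNA exporter, rose in Trp53-/- cells by 1.22, 1.19, 1.18 and 1.09. The difference between genotypes itself passed for 3 of the 14, Yars, 0.89 ± 0.14 (adjusted p = 0.00113), Aars, 0.88 ± 0.14 (adjusted p = 0.00109), and Tars, 0.71 ± 0.12 (adjusted p = 0.00196).

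Of the partners and other outputs of Atf4, 6 of 11 rose in Trp53+/+ B cells. In Trp53-/- B cells none was called by limma, with 2 at an unadjusted p under 0.05, and the difference between genotypes was called lower in Trp53-/- cells for 2. Sesn2, which restrains mTORC1 and is also a known p53 target, rose in Trp53+/+ cells, with 3.89 to 4.50 RPKM before and 43.9 to 55.1 after IR, and stood at 2.88 to 3.05 and 2.69 to 2.73 in Trp53-/- cells, a difference of -3.55 ± 0.16 (adjusted p = 4.18e-08). Ddit4, another inhibitor of mTORC1 and p53 target, differed by -1.81 ± 0.27 (adjusted p = 0.000742). Gdf15, a stress cytokine that p53 also activates, rose in Trp53+/+ cells by 1.73 ± 0.34 (adjusted p = 0.0011).

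On the kinase side, Eif2ak3 (Perk), the eIF2 kinase of the endoplasmic reticulum, fell in Trp53-/- B cells, with 38.6 to 42.6 RPKM before and 22.3 to 22.5 after IR, and stood at 35.6 to 39.8 and 38.8 to 44.6 in Trp53+/+ cells, a difference of -0.99 ± 0.11 (adjusted p = 6.58e-05). Ppp1r15a (Gadd34), the stress-induced subunit of the eIF2 phosphatase, rose in Trp53+/+ cells by 1.05 ± 0.14 (adjusted p = 6.27e-05), and its log2 fold change in Trp53-/- cells was 0.49 ± 0.20 (adjusted p = 0.0712). Eif2s1, the subunit of eIF2 that is phosphorylated, rose in Trp53-/- cells by 0.86 ± 0.11 (adjusted p = 9.65e-05), and its log2 fold change in Trp53+/+ cells was 0.36 ± 0.08 (adjusted p = 0.00266), under the size threshold. The difference between genotypes was called for neither, at -0.56 ± 0.25 (adjusted p = 0.139) and 0.50 ± 0.14 (adjusted p = 0.0281), the latter under the size threshold alone.

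Chaperones of the endoplasmic reticulum belong mainly to the Atf6 and Xbp1 branches of its stress response. Hyou1, Sdf2l1 and Manf, 3 of 19, rose in Trp53-/- B cells, by 0.76, 0.72 and 0.67, close to the share of all genes, 13.1%. None of the 19 did by limma in Trp53+/+ B cells, where 12.4% of all genes did and 8 of the 19 had an unadjusted p under 0.05. Of 10 genes of the Nrf2 oxidative stress response, whose factor also activates Slc7a11, none was called by limma in Trp53-/- B cells, with 4 at an unadjusted p under 0.05. In Trp53+/+ B cells 1 rose, Txnrd1, by 1.09 ± 0.07 (adjusted p = 5.98e-08), again close to the share of all genes, 12.4%.

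**Figure D4:**
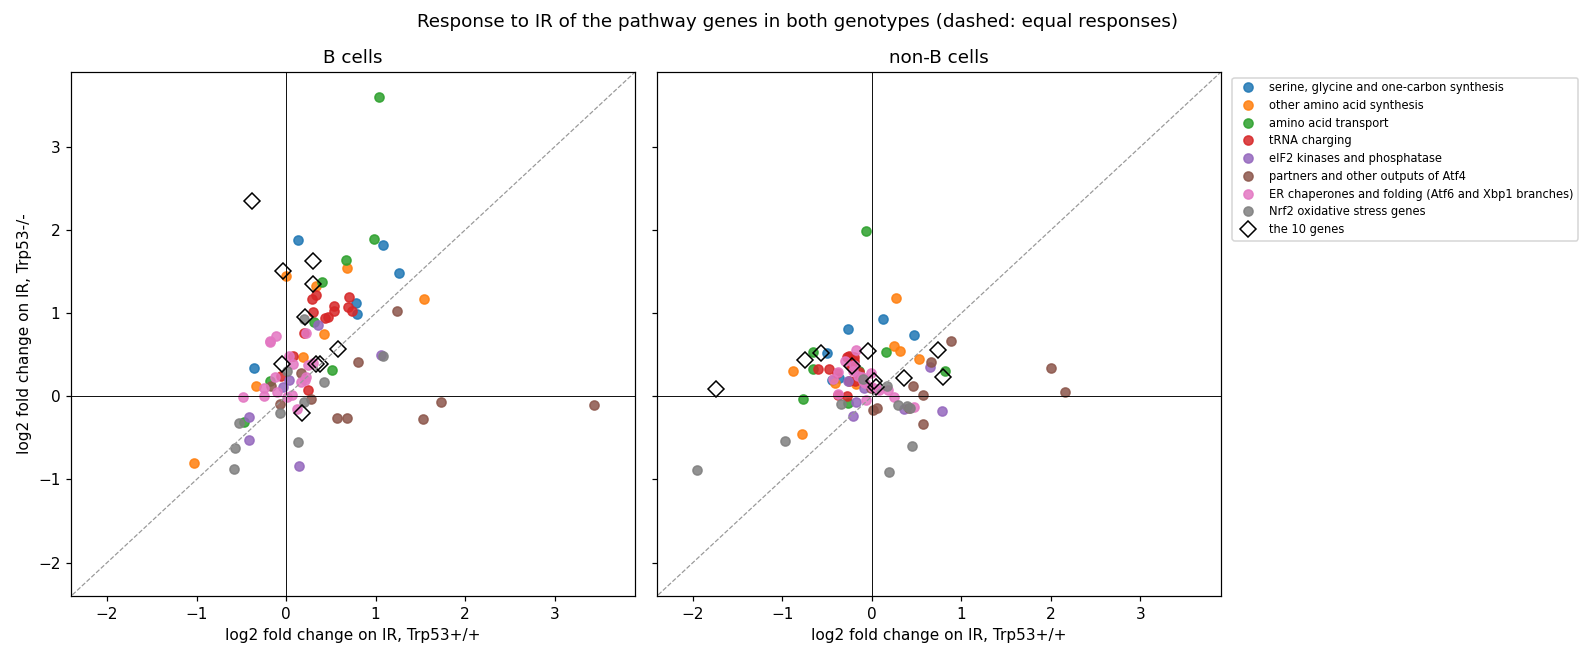
Log2 fold change on IR in Trp53+/+ cells (x axis) against that in Trp53-/- cells (y axis) for the pathway genes, coloured by list, and the 10 genes (open diamonds), in B cells (left) and non-B cells (right), with equal responses along the dashed line. In B cells 13 of 14 genes for tRNA charging, 7 of 8 for transport and 6 of 6 for serine and one-carbon synthesis lie above the line. The difference between genotypes was called for 3, 2 and 2 of these, and its median over all genes was 0.06. Slc1a4 lies at 3.59 in Trp53-/- cells, while Sesn2 lies to the right, at 3.44 in Trp53+/+ cells.

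In non-B cells the pathway genes were tested in the same way. In Trp53+/+ cells 6 of 83 rose and 7 fell after IR, where 5.71% and 4.08% of all genes did. The 7 that fell were Aldh18a1 (-0.88), Pck2 (-0.78), the transporters Slc7a1 (-0.66) and Slc7a5 (-0.66), Yars (-0.60), and the Nrf2 targets Nqo1 (-1.95) and Gclm (-0.97). The 6 that rose were Sesn2 (2.16), Gdf15 (2.00), Ddit4 (0.89), Slc7a3 (0.81), Eif2ak3 (0.79) and Ppp1r15a (0.65). Slc7a3 exceeded an RPKM of 1 in 1 irradiated sample alone. Without irradiated Trp53+/+ sample 3, 8 rather than 13 were called, and with the mean log2 level of the receptor genes as a covariate 2.

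In Trp53-/- non-B cells 2 pathway genes rose and none fell, Shmt1, 0.93 ± 0.16 (adjusted p = 0.0378), and Slc1a4, 1.99 ± 0.36 (adjusted p = 0.041). Slc1a4 was at 0.501 to 0.736 RPKM before and 2.55 to 5.89 after IR. No pathway gene was called when unstressed Trp53-/- sample 1 or 2, irradiated Trp53-/- sample 1, unstressed Trp53+/+ sample 2 or 4, or irradiated Trp53+/+ sample 1 was left out, and 1 was without unstressed Trp53+/+ sample 3 or irradiated Trp53+/+ sample 3 or 4.

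The difference between genotypes in non-B cells was called higher in Trp53-/- cells for 13 of 83 and lower for 3, where 2.82% and 3.71% of all genes were. In the direction of Psat1 and Phgdh were Shmt2, 1.08 ± 0.20 (adjusted p = 0.00941), Mthfd2, 1.02 ± 0.27 (adjusted p = 0.0425), Shmt1, 0.80 ± 0.20 (adjusted p = 0.0335), Aldh18a1, 1.18 ± 0.24 (adjusted p = 0.0175), Slc1a4, 2.06 ± 0.44 (adjusted p = 0.0198), and Slc7a1, 0.98 ± 0.15 (adjusted p = 0.00386), with Syvn1, 0.74, and Hyou1, 0.73, of the chaperone and folding list, and 5 of the 14 genes for tRNA charging, among them Iars, 0.74, Yars, 0.93, and Vars, 0.76. In the opposite direction were Sesn2, -2.11 ± 0.28 (adjusted p = 0.00174), Eif2ak3, -0.97 ± 0.13 (adjusted p = 0.002), and Srxn1, -1.10 ± 0.26 (adjusted p = 0.0279). This count of 16 was 9 with the replicate block, 10 without unstressed Trp53+/+ libraries 1 and 2, and 3 with the receptor covariate. It was 3 without unstressed Trp53-/- sample 2 or irradiated Trp53-/- sample 1, 5 without unstressed Trp53-/- sample 1, 8 without unstressed Trp53+/+ sample 2 and 7 without irradiated Trp53+/+ sample 3.

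None of the 83 pathway genes was called between the genotypes in unstressed B or non-B cells by limma, with 14 and 7 at an unadjusted p under 0.05. Of all genes in B cells, 0.0287% were called higher and 0.0287% lower, 8 genes in all but 13 to 15 without unstressed Trp53-/- sample 2, unstressed Trp53+/+ sample 4 or irradiated Trp53+/+ sample 4, and 610 of 13945 had an unadjusted p under 0.05. Between unstressed Trp53+/+ B and non-B cells, 7 of the 83 were higher in B cells and 13 lower, close to the shares of all genes, 7.4% and 17.3%. With quantile normalization, the share of all calls that were higher in B cells was 49.2% rather than 30%. Of the partners and other outputs of Atf4, 5 of 11 were lower in B cells, among them Nupr1 at -2.83 ± 0.43 (adjusted p = 2.18e-05), Atf3 at -2.10 ± 0.24 (adjusted p = 6.29e-07) and Cebpb, a C/EBP factor, at -1.83 ± 0.21 (adjusted p = 5.51e-07). Cebpb stood at 4.29 to 9.11 RPKM in B and 21.5 to 26.9 in non-B cells. Cebpg, another C/EBP factor of this list, named after its values were seen, had a difference of 0.01 ± 0.07 (adjusted p = 0.907). Eif2ak3 and Eif2ak4 (Gcn2), the kinase that senses uncharged tRNA, were higher in B cells, by 0.70 ± 0.07 (adjusted p = 5.95e-08) and 0.61 ± 0.10 (adjusted p = 3.09e-05).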

How the data were processed

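RNA of splenic B and non-B cells (24 samples, 8 groups) was depleted of ribosomal RNA and sequenced from unstranded libraries. Per the methods, the authors aligned reads, with bases of quality below 20 masked, to mm9 with TopHat (TopHat2 2.0.8 in the submitters' processing notes), kept 1 of each set of duplicated reads, which can compress the highest values, counted reads over UCSC genes with featureCounts 1.4.5, and deposited RPKM per sample for 21671 genes.

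Groups came from the labels. The authors tested counts with DESeq2. As counts were not analysed here, log2(RPKM + 0.5) was fitted with limma 3.58.1 (lmFit, contrasts.fit, eBayes with trend) in R 4.3.3, over the 12 samples of a cell type or, between cell types, all 24. All groups share 1 estimate of the spread, since Trp53-/- groups hold 2 samples, and p-values measure the spread between these samples. A gene was tested where any sample of the fit exceeded an RPKM of 1, which all 10 did in each fit. Calls needed a Benjamini-Hochberg adjusted p below 0.05 with a log2 fold change beyond 0.58 in either direction. The scripts were first tested on simulated data. Depth was estimated as the number of reads at which low RPKM values times exonic length (found for 91.1% of genes) fall nearest whole reads. Within a tolerance of 0.1 reads, 57.6% to 69.9% of these values came out whole, 20% being the share for evenly spread values, so that the depths are approximate.

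The 10 genes, the gene lists and the tests were chosen with earlier results of these data known. For the 10 genes, comparisons of unstressed cells that include B samples were planned as tests but are given as a description, since the choice of the genes turned on these samples. The text names all 10 genes, of each pathway list up to 4 genes with the largest change among those called for IR in Trp53-/- B cells and up to 3 in each other contrast, and the 8 genes most like the mean of the 10. Same-numbered unstressed and irradiated Trp53+/+ non-B samples deviated together (r = 0.156 to 0.323), so that the numbers were taken to pair them, although r reached 0.314 between different numbers (3 with 4), and unstressed sample 2 was nearer to irradiated sample 1 (0.305) than to 2, whereas in Trp53+/+ B cells r was 0.015 to 0.087. Alternatives were pseudocounts, filters, scalings, the replicate block, the mean log2 level of the receptor genes as a covariate and leaving out samples. The remaining computations used Python 3.11.15, numpy 2.4.6, pandas 2.3.3 and matplotlib 3.10.9.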

Additional observations from a re-analysis of the deposited data

Results flagged for a closer look

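Over the 40 sets of 4 samples examined for the 10 genes, 1 sample lay far from the others of its group, Chac1 in irradiated Trp53+/+ B cells, where the lowest of the 4 values was 0.265 RPKM and the other values were 0.619, 0.657 and 0.663. By chance about 1 in 20 such sets is picked out. The gap is worth few reads at this depth.

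The IR response differed between genotypes in non-B cells, by the test of the difference itself (Trp53-/- minus Trp53+/+, log2 scale), for Psat1 (1.18) and Phgdh (1.10). Among the pathway genes, it was higher in Trp53-/- B cells for Slc1a4 (2.55), Mthfd2 (1.74), Gpt2 (1.45), Aldh18a1 (0.996), Slc7a5 (0.91), Yars (0.89), Aars (0.88), Pycr1 (0.86), Manf (0.85), Sdf2l1 (0.84), Shmt1 (0.74) and Tars (0.71). It was lower there for Sesn2 (-3.55), Ddit4 (-1.81), Eif2ak3 (-0.99) and Txnrd1 (-0.61). In non-B cells it was higher in Trp53-/- cells for Slc1a4 (2.06), Aldh18a1 (1.18), Shmt2 (1.08), Mthfd2 (1.02), Slc7a1 (0.98), Shmt1 (0.80), Syvn1 (0.74) and Hyou1 (0.73), and for 5 genes for tRNA charging, of which the 3 largest differences were Yars (0.93), Vars (0.76) and Iars (0.74). It was lower for Sesn2 (-2.11), Srxn1 (-1.10) and Eif2ak3 (-0.97).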

How the results depend on the processing

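Trp53-/- groups hold 2 samples, and responses in non-B cells depended most on the settings. The cause of a change was not tested except where fewer samples were fitted. In Trp53-/- non-B cells, the 69 genes called after IR were 36 with no filter, 3 with the replicate block, 109 with the Trp53-/- numbers crossed in the block (same-numbered r = -0.253) and 301 with the dividing markers as a covariate, and the 2 pathway genes were 0 with no filter or the block and 5 with the dividing markers. In Trp53+/+ non-B cells, the 1384 genes were 440 with the mean receptor level as a covariate, and the 13 pathway genes 2 with it and 20 with the dividing markers. The 923 genes with a genotype difference there were 592 with the block, 302 with the receptor level and 2161 with the dividing markers, and the 16 pathway genes 9, 3 and 27, or 10 without unstressed Trp53+/+ libraries 1 and 2. The crossed pairing, the covariate of dividing markers and the joint omission of these 2 libraries were chosen after seeing the data. Genotype contrasts could not be fitted with the block, since each number lies within 1 genotype.

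Leaving out 1 sample at a time, the counts of genes called ranged from 1064 to 1952 for the genotype difference in B cells, from 1 to 56 and from 918 to 1419 for IR in Trp53-/- and Trp53+/+ non-B cells, from 315 to 1146 for the difference there, and from 6 to 15 and 7 to 13 between genotypes in unstressed B and non-B cells. The pathway counts ranged from 0 to 2, 8 to 13 and 3 to 16 in the 3 non-B comparisons of IR. The signs of small log2 values turned. These ranged for Asns from -1.306 to 1.482 (IR, Trp53-/- non-B), for Atf4 from -0.023 to 0.071 and Slc3a2 from -0.025 to 0.119 (IR, Trp53+/+ non-B), for Slc3a2 from -0.021 to 0.159 and Chac1 from -0.535 to 0.173 (difference, non-B), and for Atf4 from -0.034 to 0.01, Ddit3 from -0.209 to 0.056 and Trib3 from -0.345 to 0.022 (genotype, non-B). With quantile normalization, Atf4 (IR, Trp53+/+ non-B) came to -0.006. With the dividing markers, Atf5 (IR, Trp53+/+ non-B) came to 0.034, Slc3a2 (difference, non-B) to -0.005 and Phgdh (genotype, B) to 0.026. With the receptor level Slc3a2 (difference, non-B) came to -0.172, and without unstressed Trp53+/+ libraries 1 and 2 Psat1 (genotype, non-B) to 0.016. None of the tested values that turned sign was called. Of the log2 differences of the 10 genes, 6 lost and 4 gained a call in fits that left out 1 sample, and 8 lost and 6 gained one under the other alternatives, each without a change of direction. The replicate block changed no other call of the 10 genes than that of Psat1 given above. With the Trp53-/- numbers crossed in it, Asns (IR, Trp53+/+ non-B) gained a call, also given above.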
